A study of Mus musculus with 12 samples.

Results

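The 9 genes described here, Spic, Hmox1, Slc40a1, Cd163, Vcam1, Adgre1, Marco, Timd4 and Siglec1, are genes of the macrophages that recycle iron and sit at the centre of erythroblastic islands in the bone marrow. They were found by their gene names in a table of 34745 genes, which holds each of the 9 once. The table was made from the RNA of total bone marrow cells of the femur, from 12 male mice of the outbred ICR strain, so the values are those of a mixed tissue and not of sorted macrophages.

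In the marrow, an erythroblastic island is a macrophage ringed by maturing erythroblasts. The macrophage holds the erythroblasts by surface molecules, engulfs the nuclei they expel and clears aged red cells. Haem from the engulfed cells is opened by haem oxygenase, and the freed iron leaves the macrophage through ferroportin and is carried back to the erythroblasts. The transcription factor Spi-C is needed for the macrophages of this kind in the spleen and marrow, and haem itself induces its gene.

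The study asked how Qi-Jing-Sheng-Bai granule (QJSB), a formula of traditional Chinese medicine, and leucogen, a drug given to raise leucocyte counts, act on marrow damaged by cyclophosphamide, a DNA alkylating drug toxic to dividing cells. Of the 4 groups of 3 mice, the normal group had saline only. The model group had cyclophosphamide into the peritoneum at 80 mg/kg per day on days 5 to 7, and saline by mouth. The QJSB group had the same cyclophosphamide with 3 g/kg per day of the granule by mouth for 1 week, and the leucogen group had leucogen by mouth at 20 mg/kg per day for 1 week together with the same cyclophosphamide. None of the groups had a drug without cyclophosphamide.

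The libraries held 11172547 to 18545198 counts. The columns of the table are headed Blank, Model, Stilbene and Positive, and neither the sample labels nor the methods use these headings apart from Model. They were read as normal (Blank) and leucogen (Positive) by meaning and as QJSB (Stilbene) by elimination, so a result on QJSB or leucogen holds for the columns so headed. Levels of a gene are given as CPM, its counts scaled to a common library size with TMM factors of all 12 libraries, and levels of different genes are compared as FPKM, which also divides by length. Groups were compared with edgeR's quasi-likelihood test, 2 groups at a time, and every adjusted p is the Benjamini-Hochberg adjusted p of that test over all genes tested. A gene is called where the adjusted p was under 0.05 and the fold change over 1.5 in either direction, the fold limit of the study's methods. In model against normal, 16.1% of 14752 tested genes were called higher and 19.0% called lower. With total counts in place of TMM the median of all genes shifted by 0.12 on the log2 scale, and the share of calls that were higher moved from 45.8% to 56.3%. In model, QJSB and leucogen the summed levels of 11 erythroid markers were 172 to 1795 CPM, against 15954 to 20038 CPM in normal. Within their groups, model 1 and QJSB 1 stood apart by low late neutrophil markers (4802 and 7331 CPM for the sum of 10, against 11876 to 37004 CPM in the other model and QJSB libraries) and high stromal markers (544 and 641 CPM for the sum of 8, against 158 to 200 CPM), and calls that change without them are named. In bulk RNA, fewer cells of a type and less RNA per cell cannot be told apart.

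All 9 members are protein-coding genes on separate stretches of the GRCm38 genome. Marco lies at chr1:120474538-120505024 and Slc40a1 at chr1:45908068-45926523, both on the minus strand, Siglec1 at chr2:131069220-131086765 and Vcam1 at chr3:116109949-116129688, also on the minus strand. Cd163 lies at chr6:124304656-124330527 and Hmox1 at chr8:75093591-75100596 on the plus strand. Spic lies at chr10:88674772-88685015 on the minus strand, and Timd4 at chr11:46810800-46844332 and Adgre1 at chr17:57358686-57483529 on the plus strand. A single other gene of the table overlaps a member, Gm43109 within Vcam1, with 10 counts over all 12 libraries.

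RefSeq promoters (build GRCm38.p6) could be matched for 4 of the 9 members, and the 250 bases before the start are printed because all 4 genes were at lower levels in model than in normal. For Spic this start is that of 3 of its 4 annotated transcripts and lies 1992 bases inside the gene span given above, whose outer end belongs to the other transcript. They were searched on both strands for the core of the antioxidant response element (TGACNNNGC, present in 10.2% of 32851 windows of this length), the core of PU.1 sites (GAGGAA, 23.3%), which Spi-C as a relative of PU.1 also binds, and the core of interferon response elements (GAAANNGAA, 7.13%). Capitals mark a match, a description of the letters and not of binding.
Spic, chr10:88683024-88683273, minus strand: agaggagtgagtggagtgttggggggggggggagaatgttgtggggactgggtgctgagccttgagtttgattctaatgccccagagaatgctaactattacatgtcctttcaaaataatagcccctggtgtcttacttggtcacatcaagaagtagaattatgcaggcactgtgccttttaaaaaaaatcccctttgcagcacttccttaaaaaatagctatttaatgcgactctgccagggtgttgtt
Cd163, chr6:124304401-124304650, plus strand: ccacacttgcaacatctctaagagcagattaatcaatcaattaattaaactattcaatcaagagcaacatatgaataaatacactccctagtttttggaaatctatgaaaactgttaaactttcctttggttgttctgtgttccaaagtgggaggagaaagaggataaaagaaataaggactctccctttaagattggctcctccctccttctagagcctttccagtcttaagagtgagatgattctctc
Marco, chr1:120505025-120505274, minus strand: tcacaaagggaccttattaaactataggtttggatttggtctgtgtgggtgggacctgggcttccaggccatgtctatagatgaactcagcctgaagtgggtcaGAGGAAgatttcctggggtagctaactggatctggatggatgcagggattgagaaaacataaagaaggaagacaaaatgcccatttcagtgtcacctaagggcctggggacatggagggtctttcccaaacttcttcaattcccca
Timd4, chr11:46810549-46810798, plus strand: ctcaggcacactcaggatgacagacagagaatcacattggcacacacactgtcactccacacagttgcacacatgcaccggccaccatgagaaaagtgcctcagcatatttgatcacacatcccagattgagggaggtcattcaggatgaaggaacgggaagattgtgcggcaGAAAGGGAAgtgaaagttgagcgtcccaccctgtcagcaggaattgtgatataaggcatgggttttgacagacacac
Marco held 1 match to GAGGAA, 146 to 141 bases before the start, and Timd4 held 1 match to GAAANNGAA, 77 to 69 bases before it. The windows of Spic and Cd163 held none of the 3 letter patterns.

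After cyclophosphamide alone, 5 of the 8 members that could be tested fell and 0 rose, where 19.0% of all tested genes fell. The 5 were Timd4, Hmox1, Cd163, Slc40a1 and Spic, with falls to between 26.0% and 47.5% of the mean level in normal. Vcam1, Siglec1 and Adgre1 were not called, and Marco was too low to be tested. The median log2 fold change of the 8 was -1.11, beside 0.02 for all tested genes. Model and normal libraries did not overlap for Hmox1, Slc40a1, Cd163, Vcam1, Timd4 and Marco. There an exact two-sided permutation test gives the smallest p it can with 3 against 3, 0.1. How many of all tested genes do not overlap was not counted, so this describes each gene and is not read as particular to the members. The count of falls moved with 1 library: it was 8, with Siglec1, Vcam1 and Marco added, without model 1, and 3 without normal 2. With total counts in place of TMM it was 3, Hmox1, Slc40a1 and Timd4.

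**Figure D1:**
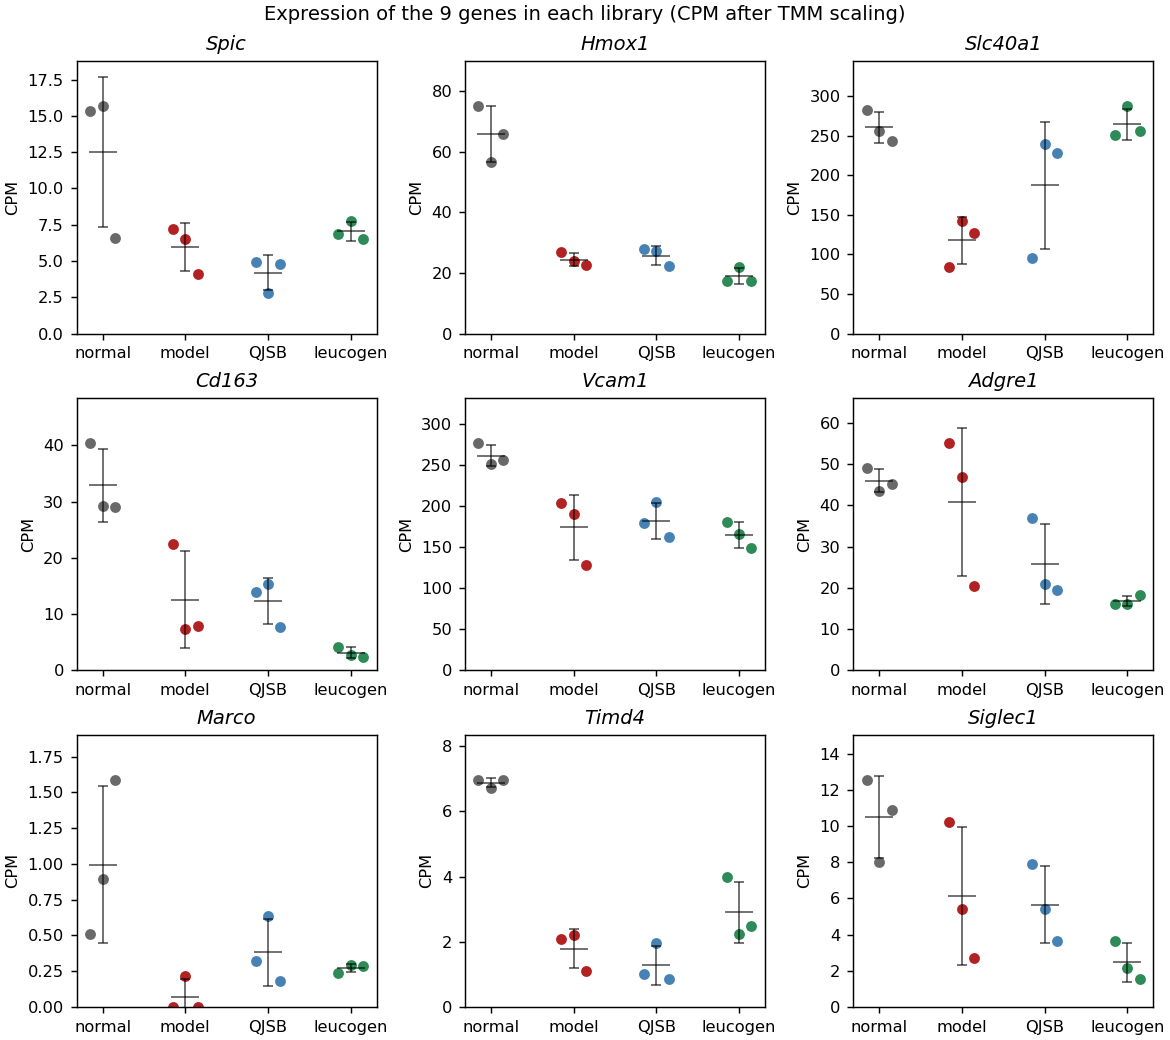
Level of each of the 9 members in each library, in CPM after TMM scaling, on a separate linear axis per gene that starts at 0. Points are libraries in the order of their replicate numbers, bars are the mean and SD of the 3 libraries of a group; Hmox1, Timd4 and Cd163 are highest in all 3 normal libraries, and Slc40a1 in leucogen overlaps the normal values.

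Spic, the gene of the transcription factor of iron-recycling macrophages, stood at 15.4, 15.6 and 6.55 CPM in the 3 normal libraries and at 7.22, 6.53 and 4.10 CPM in model. Normal 3 lay within the range of model, and the other two normal libraries lay above it. Spic fell by 1.07 on the log2 scale (SE 0.36, edgeR adjusted p = 0.0442). The call was lost without normal 1 (adjusted p = 0.140), normal 2 (0.144), model 2 (0.0974) or model 3 (0.126), with total counts in place of TMM (0.0746), and with limma on log2(FPKM + 0.1) (0.122) or log2(FPKM + 1) (0.112).

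Hmox1 encodes the haem oxygenase that haem and oxidative stress induce. Its level was 74.9, 56.6 and 65.9 CPM in normal and 26.9, 23.8 and 22.5 CPM in model. Every model library lay below every normal library. Its log2 fold change of -1.43 (SE 0.15, edgeR adjusted p = 0.00021) was called under all 15 alternatives, between -1.52 and -1.22.

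Slc40a1 encodes ferroportin, the only known exporter of iron from cells, which is present in iron-recycling macrophages and also in erythroblasts. It stood at 282, 256 and 244 CPM in normal and at 83.6, 142 and 128 CPM in model. The groups did not overlap, and model 1 was the lowest library of all 12. Slc40a1 fell by 1.14 on the log2 scale (SE 0.20, edgeR adjusted p = 0.0022), called under all 15 alternatives.

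Cd163, the receptor for haemoglobin bound to haptoglobin, was at 40.4, 29.2 and 29.1 CPM in normal. In model it was at 22.5, 7.31 and 7.79 CPM, so model 1 lay well above the other two and still below every normal library. Cd163 fell by 1.38 on the log2 scale (SE 0.44, edgeR adjusted p = 0.0419). This call was lost without any 1 of the normal libraries (adjusted p = 0.117, 0.0813 and 0.0754) and without model 2 (0.112) or model 3 (0.116), with total counts in place of TMM (0.0709) and with no filter on low counts (0.0984), while without model 1 the log2 fold change was -2.11 (adjusted p = 0.00023).

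Marco, a scavenger receptor of macrophages for bacteria and particles, had 7, 13 and 23 counts in normal and 0, 3 and 0 counts in model. A count of 0 allows up to 3 counts, which is 0.173 CPM in either of the model libraries at 0. The ratio of the summed counts, 43 against 3, was 16.3 after scaling for depth, with an exact 95% interval of 5.22 to 82.1 that covers counting error only. The groups did not overlap, but Marco was not tested because it did not pass the filter on low counts. Without that filter, edgeR gave an adjusted p of 0.00833.

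Timd4, a receptor for phosphatidylserine on dying cells that long-lived tissue macrophages carry, was at 6.96, 6.73 and 6.97 CPM in normal. Model libraries held 2.08, 2.20 and 1.10 CPM. This was the largest fall among the tested members, with a log2 fold change of -1.94 (SE 0.30, edgeR adjusted p = 0.0013), called under all 15 alternatives. It rests on 19 to 36 counts a library in model.

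Vcam1, by which island macrophages hold the integrin of erythroblasts, and which stromal and endothelial cells also carry, was at 277, 252 and 256 CPM in normal and at 203, 191 and 128 CPM in model. The groups did not overlap. The log2 fold change of -0.58 (SE 0.18, edgeR adjusted p = 0.0286) lay just inside the fold limit, so Vcam1 was not called. It passed under 7 of 15 alternatives, with values between -0.70 and -0.40 over all of them.

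Siglec1 (CD169), a sialic acid receptor that marks marrow macrophages and rises with interferon, was at 12.5, 8.03 and 10.9 CPM in normal and at 10.2, 5.39 and 2.71 CPM in model. Model 1 lay within the normal range. Its log2 fold change was -0.77 (SE 0.44, edgeR adjusted p = 0.194), and without model 1 it was -1.36 and called (adjusted p = 0.0157).

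Adgre1 encodes F4/80, the usual surface marker of mouse macrophages, which monocytes and eosinophils also carry. It was at 49.1, 43.6 and 45.3 CPM in normal and at 55.1, 46.9 and 20.5 CPM in model. Model 1 and model 2 were at or above the normal level and model 3 below it. Its log2 fold change was -0.17 (SE 0.32, edgeR adjusted p = 0.707). Without model 3 it was 0.16, in the other direction.

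**Figure D2:**
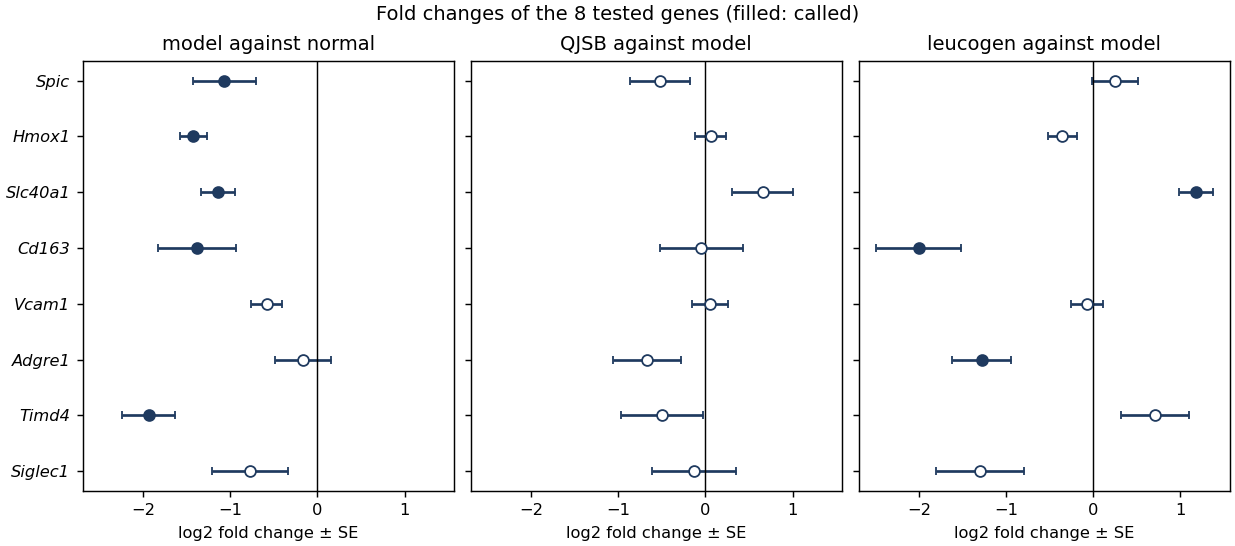
Log2 fold change with its SE from edgeR's quasi-likelihood test for the 8 tested members in model against normal, QJSB against model and leucogen against model, on a shared axis. Filled points are called, 5 in model against normal (all lower), 0 in QJSB against model and 3 in leucogen against model, where Slc40a1 is higher and Cd163 and Adgre1 are lower.

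On the scale of FPKM, the members fell into 2 sets of levels in normal marrow. Vcam1 had a mean of 26.6 ± 1.21, Slc40a1 of 23.8 ± 1.63 and Hmox1 of 23.3 ± 3.18 FPKM (SD, n = 3). Slc40a1 and Hmox1, neighbours in this order, did not differ beyond their SD. Adgre1 followed at 12.5 ± 0.723 FPKM. Cd163 (4.63 ± 0.884), Timd4 (3.11 ± 0.0702), Spic (2.44 ± 0.995), Siglec1 (1.34 ± 0.289) and Marco (0.486 ± 0.271 FPKM) made up the low set, where the means of Timd4 and Spic differed by less than the SD of Spic. In leucogen the order differed, with Slc40a1 first at 23.4 ± 1.38 FPKM, Vcam1 at 16.4 ± 2.14, Hmox1 at 6.52 ± 0.778 and Cd163 at 0.428 ± 0.153 FPKM.

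The markers of other cells moved as well between normal and model. The summed level of 8 monocyte markers was 1425 to 1553 CPM in normal and 3345 to 6473 CPM in model, with model 1 the highest, and 5 of the 8 rose. Of 8 eosinophil markers 7 fell, and their sum went from between 1486 and 1842 CPM to between 74.6 and 189 CPM. The 8 stromal markers summed to 300 to 306 CPM in normal and to 184 to 544 CPM in model, where model 1 held the highest value. The 8 endothelial markers summed to 133 to 146 CPM in normal and 112 to 143 CPM in model, and 4 of the 8 rose. Pecam1, which was not called, held 101 to 115 CPM of this sum in normal and 65.5 to 79.9 CPM in model. The median log2 fold change of the 8 was 0.62. Of 10 interferon-stimulated genes 5 fell and 1 rose, with sums of 317 to 335 CPM in normal and 33.8 to 82.1 CPM in model. Rsad2 alone held 250 to 269 CPM of this sum in normal and 2.98 to 21.9 CPM in model, so the sum mostly follows that gene. Of 8 B cell markers 7 fell, and of 10 late neutrophil markers 3 fell. No gene of the monocyte, eosinophil, stromal, endothelial or interferon lists was at 0 in a normal or model library. The part of these cells in the levels of Adgre1, Siglec1, Vcam1 and Slc40a1 was not tested.

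Genes of tissue macrophages outside the 9 moved in both directions. Of 18 tested, 9 fell and 3 rose in model, with a median log2 fold change of -0.67, and Folr2 and Vsig4 were too low to be tested. Fcna, a ficolin of macrophages, fell from 18.8 to 20.9 CPM in the normal libraries to 3.00 to 3.35 CPM (log2 fold change -2.62, SE 0.18, edgeR adjusted p = 2.4e-05). C1qc, a chain of complement C1q, fell by 1.94 on the log2 scale and Cd5l, a secreted scavenger protein, fell by 1.66. Trem2, a lipid receptor, went the other way, from 1.88 to 3.38 CPM in normal to 12.4 to 16.5 CPM in model (log2 fold change 2.43, SE 0.26, edgeR adjusted p = 0.00019). The other rises were Csf1r (0.81) and Stab1 (1.31), named after their values were seen.

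The wider set of genes of haem breakdown and iron transport, storage and sensing did not move together. Of 22, Flvcr1 and Flvcr2 are not in the table under these names, and of the 20 tested 6 fell, 3 rose and 11 were not called, with a median log2 fold change of 0.08. Blvrb, a biliverdin reductase abundant in erythroid cells, went from 138 to 157 CPM in normal to 3.12 to 9.24 CPM in model (log2 fold change -4.64, SE 0.37, edgeR adjusted p = 8.95e-05). Tfrc, the transferrin receptor by which erythroblasts take up iron, fell from 2357 to 2655 CPM to 174 to 342 CPM, a log2 fold change of -3.22. Steap3, which reduces iron in the endosome, fell by 2.59 on the log2 scale and Slc11a2, which carries it out of the endosome, fell by 2.16. The 3 that rose were Lrp1, the receptor for haem bound to haemopexin (2.05), Hfe (1.66) and Slc39a14 (0.69), named after their values were seen. Of the 4 largest falls, Blvrb, Tfrc, Steap3 and Slc11a2 are all known for their use in erythroblasts, whose 11 tested markers all fell, with a median log2 fold change of -5.47. The part of lost erythroblasts in the falls of Slc40a1 and Hmox1 was not tested.

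**Figure D3:**
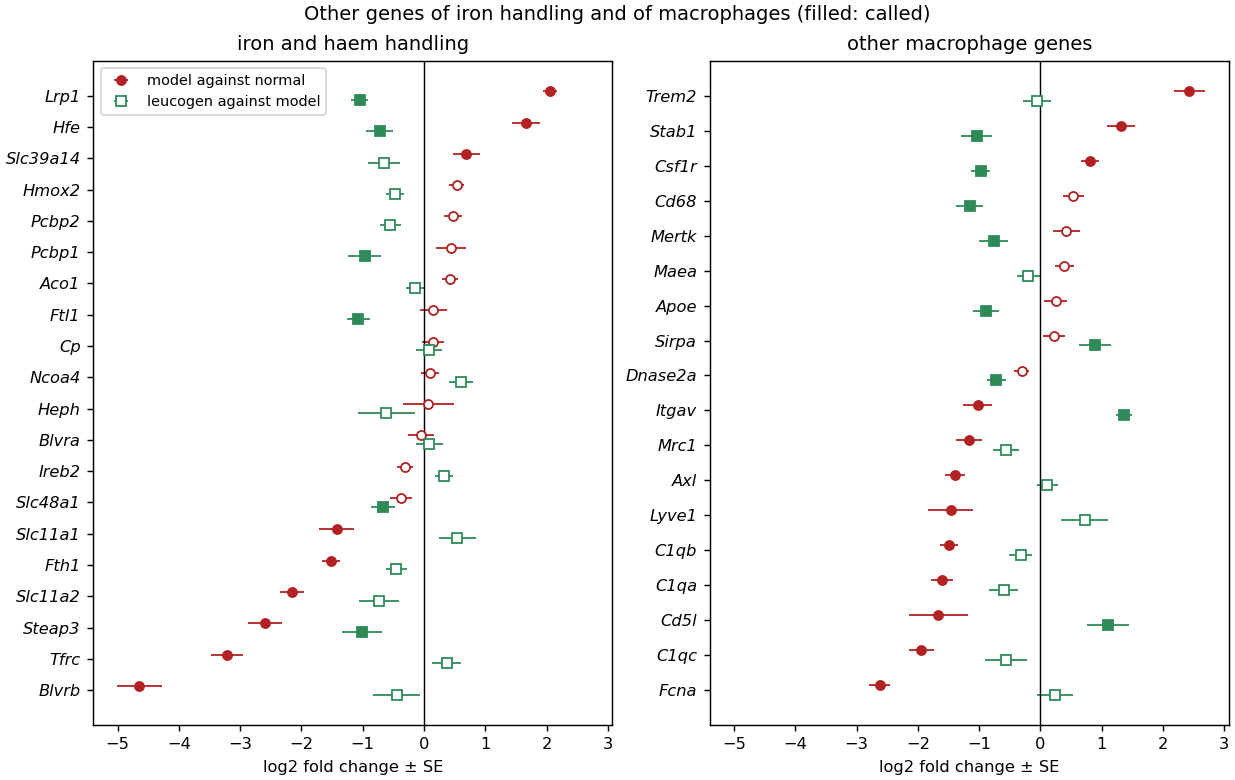
Log2 fold change with its SE of the 20 tested genes of iron and haem handling and of 18 other macrophage genes, in model against normal (circles) and leucogen against model (squares), with called values filled. The 2 comparisons share the model libraries; 6 iron genes fell and 3 rose in model against normal, and 6 fell and 0 rose in leucogen against model.

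Among 10 regulators known to act on macrophage or haem response genes, 2 rose and 2 fell in model. Of all tested genes 16.1% rose and 19.0% fell, so these counts are not read as particular to the regulators. Cebpb, of the C/EBP family of myeloid factors, rose from 5.86 to 10.0 CPM to 16.7 to 36.7 CPM (log2 fold change 1.68, SE 0.33, edgeR adjusted p = 0.0042). Pparg, a nuclear receptor of lipid-handling macrophages, fell by 1.02 on the log2 scale (adjusted p = 0.0181). Bach1, the repressor of Hmox1 that haem removes, had a log2 fold change of 0.08 (SE 0.13, edgeR adjusted p = 0.644). Nfe2l2, which encodes the activator NRF2, had a value of -0.01 (SE 0.13, edgeR adjusted p = 0.942).

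Between QJSB and model, edgeR called 0 of the 8 tested members, and 0 passed the unadjusted cutoff of the study's methods, a p under 0.05 with the same fold limit. Over all 14486 tested genes 0.00% were called higher and 0.00% lower, and 3.08% passed the unadjusted cutoff. DESeq2 and limma also called 0 of the members. The QJSB and model libraries overlapped for every member. Deviations from the group means correlated at 0.426, 0.123 and 0.107 between QJSB and model libraries numbered 1, 2 and 3. Only QJSB 1 was most like the model library of its own number, so a pairing is not established. Within pairs by number, QJSB was higher in 3 of 3 for Slc40a1 and Marco and lower in 3 of 3 for Adgre1 and Timd4. It was mixed for the other 5 members. With 3 pairs an exact two-sided permutation test cannot go below p = 0.25. The median log2 fold change of the 8 was -0.09, beside -0.02 for all tested genes.

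Slc40a1 came nearest to the unadjusted cutoff. It was at 95.01, 239 and 228 CPM in QJSB 1, QJSB 2 and QJSB 3, against 83.6, 142 and 128 CPM in model. QJSB 2 and QJSB 3 lay above all model libraries, and QJSB 1 lay between model 1 and model 3. The log2 fold change was 0.66 (SE 0.35, edgeR adjusted p = 0.767, unadjusted p = 0.10). Without QJSB 1 it was 0.98 (adjusted p = 0.160), and blocked by replicate number it was 0.58 (adjusted p = 0.369). QJSB 1 and model 1, the lowest libraries for Slc40a1, are also the libraries with the fewest late neutrophil markers, and the part of these cells in its level was not tested.

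Adgre1 was at 37.1, 21.0 and 19.6 CPM in QJSB, against 20.5 to 55.1 CPM in model. QJSB 1 and QJSB 2 lay within the range of model and QJSB 3 just below it. The log2 fold change was -0.67 (SE 0.39, edgeR adjusted p = 0.767), and blocked by replicate number it was -0.62 and past the unadjusted cutoff (unadjusted p = 0.0201, adjusted p = 0.464). Spic was at 4.94, 2.78 and 4.81 CPM, a log2 fold change of -0.52 (SE 0.34). Hmox1 held 27.9, 27.2 and 22.1 CPM, or 0.06 (SE 0.18) against model, and Cd163 held 13.96, 15.3 and 7.62 CPM, or -0.05 (SE 0.47). Vcam1 at 162 to 205 CPM, Siglec1 at 3.66 to 7.90 CPM and Timd4 at 0.853 to 1.97 CPM gave log2 fold changes of 0.05 (SE 0.20), -0.13 (SE 0.48) and -0.50 (SE 0.47). Marco had 6, 11 and 3 counts, and the ratio of its summed counts to those of model was 6.21, with an exact 95% counting interval of 1.84 to 32.6. That interval covers counting error only, and without the filter on low counts edgeR gave Marco an adjusted p of 0.819. The library values of Marco overlapped those of model, since QJSB 3 and model 2 had 3 counts each. In all 11 other lists of cell markers and pathways 0 genes were called between QJSB and model.

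In leucogen against model Slc40a1 rose, Cd163 and Adgre1 fell, and 5 of the 8 tested members were not called. Over 14184 tested genes, 11.6% were called higher and 11.5% lower. With total counts in place of TMM the median of all genes shifted by -0.17, and the share of calls that were higher moved from 50.1% to 30.2%. The same 3 members were called with that scaling.

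Slc40a1 was at 250, 287 and 256 CPM in leucogen, above the 83.6 to 142 CPM of model with no overlap. It rose by 1.18 on the log2 scale (SE 0.19, edgeR adjusted p = 0.0050), called under all 15 alternatives and between 0.97 and 1.36. Against normal (244 to 282 CPM) the leucogen level overlapped, with a log2 fold change of 0.04 (SE 0.09, edgeR adjusted p = 0.722).

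Hmox1 did not share this. It was at 17.5, 21.9 and 17.5 CPM in leucogen, below every model library. The log2 fold change was -0.36 (SE 0.17, edgeR adjusted p = 0.140), so the exporter of iron was called and the enzyme that frees it from haem was not. The ratio of Slc40a1 to Hmox1 FPKM within a library, a measure chosen after the values were seen and given without a test, was 0.970, 1.16 and 0.951 in normal and 0.7996, 1.53 and 1.46 in model. In QJSB it was 0.877, 2.27 and 2.66, and in leucogen 3.69, 3.37 and 3.77. All 3 leucogen libraries lay above the other 9, and QJSB 1 lay among normal and model while QJSB 2 and QJSB 3 lay between model and leucogen. The sum of the 10 late neutrophil markers was 48145 to 57757 CPM in leucogen, against 18300 to 21833 CPM in normal and 4802 to 19728 CPM in model, and 7 of the 10 rose against model. Its part in the level of Slc40a1 was not tested.

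**Figure D4:**
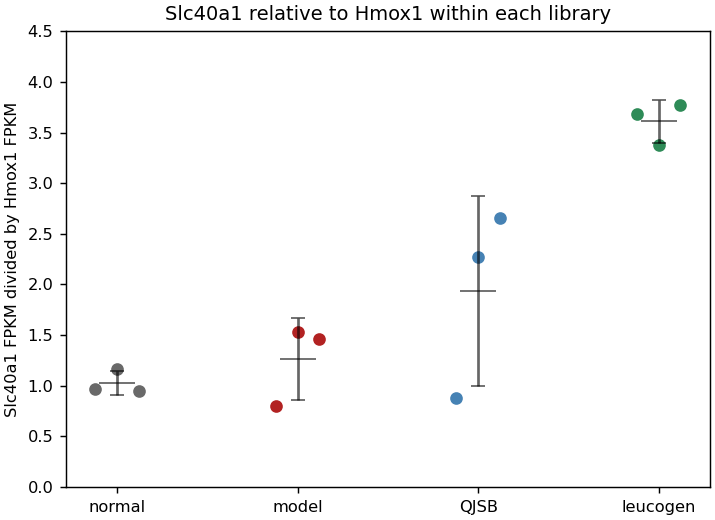
FPKM of Slc40a1 divided by FPKM of Hmox1 in each library, with the mean and SD of the 3 libraries of each group, on a linear axis from 0. The means are 1.03 in normal, 1.26 in model, 1.93 in QJSB and 3.61 in leucogen, and the 3 leucogen points lie above all others.

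Cd163 was at 4.21, 2.68 and 2.40 CPM in leucogen, on 25 to 53 counts a library, and below every library of the other groups. It fell against model by 2.01 on the log2 scale (SE 0.49, edgeR adjusted p = 0.0219). The call was lost without leucogen 2 (adjusted p = 0.0762) or leucogen 3 (0.0899), and without model 1 it was -1.26 and called (0.0295).

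Adgre1 was at 16.05, 15.95 and 18.1 CPM in leucogen, below all 3 model libraries, of which model 3 was the nearest at 20.5 CPM. Adgre1 fell by 1.28 on the log2 scale (SE 0.34, edgeR adjusted p = 0.0273). The call was lost without model 1 (adjusted p = 0.0646), model 2 (0.0719), leucogen 1 (0.0852), leucogen 2 (0.0856) or leucogen 3 (0.0833). The sum of the 8 monocyte markers was 2153 to 2723 CPM in leucogen against 3345 to 6473 CPM in model. Fn1 alone held 613 to 888 CPM of this sum in leucogen and 1138 to 3259 CPM in model. Of the 8 markers 3 fell and 5 were not called. The part of monocytes in the level of Adgre1 was not tested.

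Siglec1 was at 3.65, 2.18 and 1.54 CPM in leucogen, on 16 to 46 counts, and overlapped model. The log2 fold change was -1.30 (SE 0.51, edgeR adjusted p = 0.0884), past the unadjusted cutoff. It was called without model 3 (adjusted p = 0.0300), with DESeq2 (0.0395) and when blocked by replicate number (0.0286). Timd4 at 3.97, 2.25 and 2.50 CPM lay above all model libraries, with a log2 fold change of 0.71 (SE 0.39, edgeR adjusted p = 0.202). Spic at 6.83, 7.76 and 6.53 CPM and Vcam1 at 181, 166 and 149 CPM overlapped model, with log2 fold changes of 0.25 (SE 0.27) and -0.07 (SE 0.19). Marco had 3, 4 and 3 counts, a ratio to model of 4.42 with an exact 95% counting interval of 1.14 to 25.0. Without the filter on low counts, edgeR gave Marco an adjusted p of 0.324. The CPM of Marco did not overlap that of model, although the lowest leucogen libraries and model 2 had 3 counts each.

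Of the 20 tested genes of iron and haem handling, 6 fell and 0 rose in leucogen against model, with a median log2 fold change of -0.51 beside -0.05 for all tested genes. The genes that had fallen most in model were not called higher. Tfrc was at 322 to 393 CPM in leucogen (log2 fold change 0.37, SE 0.23, edgeR adjusted p = 0.267). Blvrb, at 3.65 to 5.08 CPM, and Slc11a2, at 4.79 to 11.5 CPM, were not called, and Steap3 fell further by 1.01 on the log2 scale (SE 0.32, edgeR adjusted p = 0.0452). The other falls, named after their values were seen, were Ftl1 (-1.07), Lrp1 (-1.05), Pcbp1 (-0.97), Hfe (-0.72) and Slc48a1 (-0.66). Lrp1 and Hfe had risen in model against normal, as had Slc39a14, which was not called here (-0.66). Among the 18 other macrophage genes 3 rose and 6 fell. Cd5l rose by 1.09 on the log2 scale (SE 0.34, edgeR adjusted p = 0.0423), while Fcna (0.24), C1qc (-0.56) and Trem2 (-0.06) were not called. The other rises, named after their values were seen, were Itgav (1.37) and Sirpa (0.89). The falls, named in the same way, were Cd68 (-1.15), Stab1 (-1.04), Csf1r (-0.98), Apoe (-0.89), Mertk (-0.76) and Dnase2a (-0.72). Among these, Stab1 and Csf1r had risen in model against normal. Of the regulators, Nfe2l2 rose (log2 fold change 0.66, SE 0.14, edgeR adjusted p = 0.0106), named after its value was seen as the 1 of 10 that was called. The erythroid markers were not called in either direction.

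**Figure D5:**
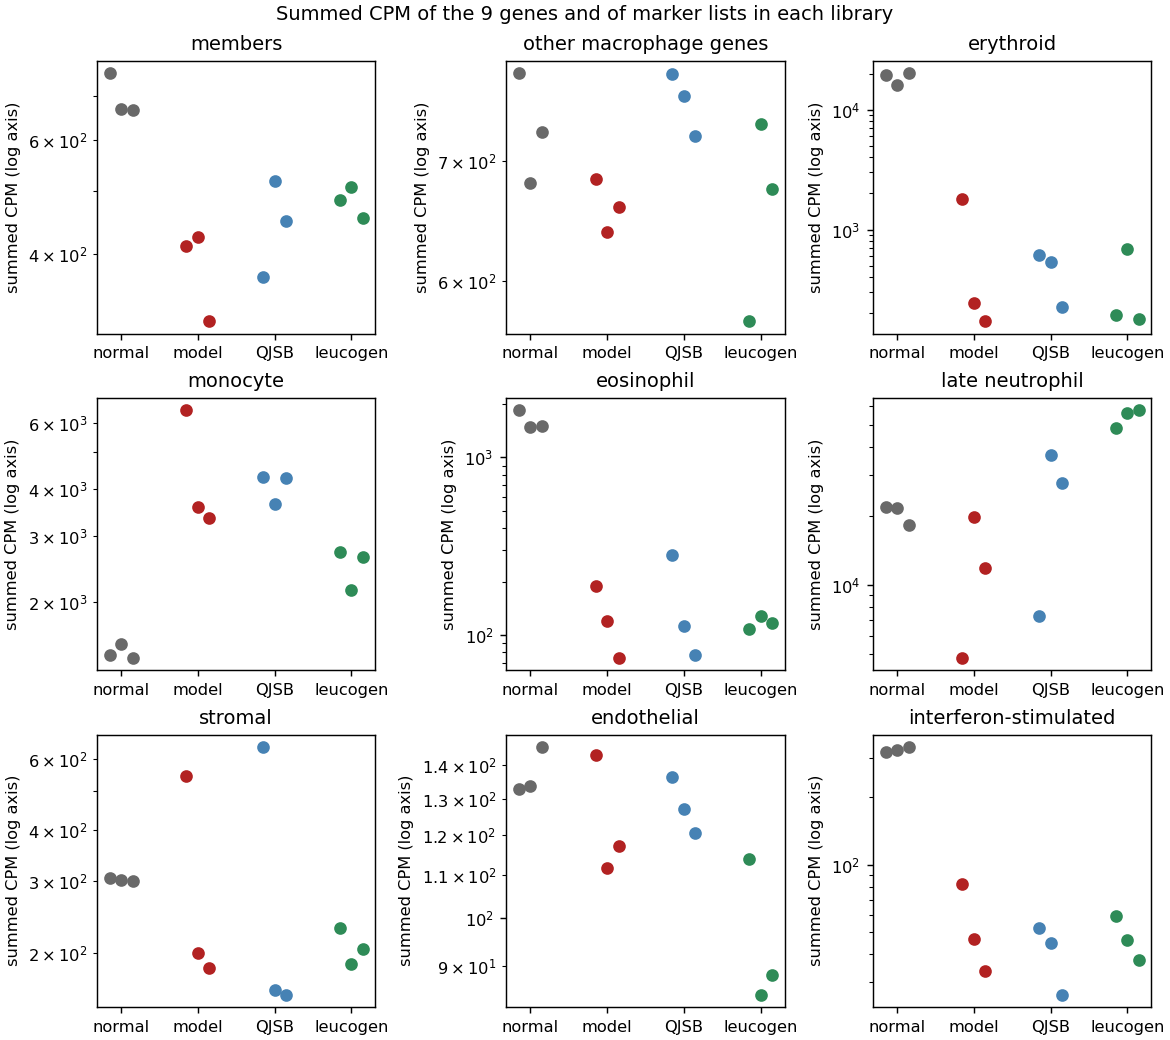
Summed CPM of the 9 members and of 8 marker lists in each library, each panel on its own log axis, with the groups along the horizontal axis and 1 point per library. The members sum to 666 to 759 CPM in normal and 315 to 519 CPM in the other libraries; erythroid, eosinophil and interferon-stimulated sums are lower in every cyclophosphamide library, and late neutrophil sums are highest in leucogen. Vcam1 and Slc40a1 weigh most in the sum of the members, with means of 262 and 261 CPM in normal, where Hmox1 is next at 65.8 CPM. Rsad2 weighs most in the interferon-stimulated sum, with a mean of 258 CPM in normal.

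Set against normal, 5 members fell in QJSB and 6 in leucogen, and these comparisons share the normal libraries with model against normal. In QJSB against normal 5 of 8 members fell and 0 rose, where 18.0% of 14817 tested genes were called higher and 19.9% lower. Timd4 (log2 fold change -2.41, SE 0.34), Spic (-1.57, SE 0.39), Cd163 (-1.40, SE 0.28), Hmox1 (-1.34, SE 0.16) and Adgre1 (-0.81, SE 0.25, edgeR adjusted p = 0.0300) were called. Spic was lost without normal 1 (adjusted p = 0.0513) or normal 2 (0.0533), and Adgre1 without any 1 of the normal libraries, QJSB 2 or QJSB 3 (0.0702 to 0.0915), with total counts in place of TMM (0.0618) and with all libraries fitted together (0.0510). Slc40a1 had a log2 fold change of -0.46 (SE 0.31, edgeR adjusted p = 0.258) and did not overlap normal. Siglec1 (-0.87, SE 0.31) missed with an adjusted p of 0.0535 and was called under 6 of 15 alternatives, among them without QJSB 1 (-1.20, 0.0057). Vcam1 was called without QJSB 2 (-0.60). The ratio of Marco counts in normal to those in QJSB was 2.62, with an exact 95% counting interval of 1.51 to 4.71, and the libraries overlapped. Without the filter on low counts, edgeR gave Marco an adjusted p of 0.135.

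In leucogen against normal 6 of 8 members fell and 0 rose, where 17.8% of 14637 tested genes were called higher and 19.8% lower. Cd163 fell to 9.42% of the normal level (log2 fold change -3.37, SE 0.23, edgeR adjusted p = 2.4e-06), the largest change of a tested member in the 6 comparisons. Siglec1 (-2.05, SE 0.31), Hmox1 (-1.77, SE 0.14), Adgre1 (-1.44, SE 0.11), Timd4 (-1.22, SE 0.25) and Vcam1 (-0.64, SE 0.10) also fell, each under all 15 alternatives. Spic had a log2 fold change of -0.81 (SE 0.31, edgeR adjusted p = 0.0590), and was called under 5 of 15 alternatives, among them without normal 3 (-1.12, 0.00079). For Marco the ratio of normal to leucogen was 3.69, with an exact 95% counting interval of 1.83 to 8.24. Without the filter on low counts, the adjusted p of Marco was 0.0246 with edgeR and 0.0730 with DESeq2.

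The 2 drug groups were also compared with each other. Of the 8 members 1 was called, Cd163, where 12.9% of 14266 tested genes were higher in QJSB and 11.7% lower. Cd163 was at 13.96, 15.3 and 7.62 CPM in QJSB and at 4.21, 2.68 and 2.40 CPM in leucogen, with no overlap. The sum of the 8 monocyte markers did not overlap either, at 3649 to 4296 CPM in QJSB and 2153 to 2723 CPM in leucogen. Fn1 alone held 2191 to 2339 CPM of this sum in QJSB and 613 to 888 CPM in leucogen. Of the 8 markers 1 was called higher in QJSB, 1 lower and 6 were not called. The part of monocytes in the level of Cd163 was not tested. The log2 fold change of Cd163 in QJSB against leucogen was 1.96 (SE 0.33, edgeR adjusted p = 0.0052), called under all 15 alternatives. Spic (-0.77, SE 0.28, edgeR adjusted p = 0.0687), Timd4 (-1.20, SE 0.43, 0.0639), Siglec1 (1.17, SE 0.40, 0.0578), Hmox1 (0.42, SE 0.17, 0.0917) and Adgre1 (0.61, SE 0.25, 0.101) did not overlap between the 2 groups but were not called. Slc40a1 did not overlap either, with a log2 fold change of -0.51 (SE 0.32, edgeR adjusted p = 0.261), so the test did not separate its level in the 2 drug groups. Of these, Siglec1 was called under 5 of 15 alternatives, among them without QJSB 3 (1.39) or leucogen 1 (1.57), Timd4 under 3, among them without QJSB 2 (-1.62), and Spic under 1, without QJSB 1 (-0.92). How many of all tested genes do not overlap between QJSB and leucogen was not counted.

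The genes whose pattern over the 12 libraries was most like that of a member were found by the root mean square difference of log2 CPM, each gene centred on its mean, among 10594 named genes. Hmox1 was nearest to Apeh (0.134), Vcam1 to Dok2 (0.129) and Dcaf8 (0.130), and Slc40a1 to Prkcb (0.150) and Stx11 (0.156). Adgre1 was nearest to Cd244 (0.231) and Inpp5f (0.248), Siglec1 to Tubb2a (0.264) and Dgke (0.278), and Timd4 to Irgm2 (0.278) and Igtp (0.279). Spic was nearest to Srsf10 (0.304) and Kansl1l (0.313). The differences were larger for Cd163, with Tlr9 (0.427) and Ptprcap (0.428), and for Marco, with Nqo1 (0.512) and Ankrd9 (0.524). The second gene for Hmox1 (0.165) has a symbol that the table holds as a date and is not named. No member was among the nearest genes of another member.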

How the data were processed

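Libraries were strand-specific, made by the authors after depletion of ribosomal RNA. Reads passed a Seqtk filter and were aligned to GRCm38.p4 by Hisat2. The deposited table holds, per library, read counts without normalization and FPKM, which the authors computed from fragments, transcript length and total fragments. The counting program and the annotation version are not given in the sources used here. No label ties the column headings to groups apart from Model, and 0 columns of values were left unused.

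Counts were tested with edgeR 4.0.16 in R 4.3.3 (TMM, filterByExpr, robust glmQLFit and glmQLFTest), 2 groups at a time. The SE is the absolute log2 fold change divided by the square root of F. CPM used TMM factors over 12 libraries, and log2 CPM a prior count of 2. The alternatives comprised DESeq2 1.42.0 with no filter, its size factors within edgeR, total counts in place of TMM, 2 other filters (none, or a minimum of 10 counts per library), a joint fit of the 12 libraries, a block on replicate number, and leaving out every library in turn. FPKM were fitted by limma 3.58.1 (limma-trend) as log2(FPKM + 0.1) and log2(FPKM + 1), where the mean FPKM reached 0.1. Fold changes on the FPKM scale understate the change of low genes. The scripts were tested on simulated data. Depth intervals cover counting error only, and the labels call the 3 libraries of a group biological replicates.

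A pairing by replicate number was checked through correlations, over 15310 genes, between libraries of the same number after subtracting the group means. Between QJSB and model they were 0.426, 0.123 and 0.107, all over 0.1, and in the other comparisons at least 1 was under 0.1. QJSB 2 and QJSB 3 were each more like a model library of another number. Between QJSB and leucogen, at 0.181, 0.134 and 0.0782, each QJSB library was most like the leucogen library of its own number. The labels give no pairs by replicate number, and these correlations do not establish them.

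The members and the lists (iron and haem handling, regulators, other macrophage genes, erythroid, monocyte, eosinophil, stromal, endothelial, late neutrophil, interferon-stimulated and B cell) were chosen with earlier results of these data known. Named from the lists are the 4 iron, 4 macrophage and 2 regulator genes with the largest absolute log2 fold change among those called in model against normal and, per marker list, the gene with the highest mean count. Genes most like a member were taken from genes whose normalized count averaged 50 or more. Promoters are from RefSeq, and gene spans of the table were compared with GENCODE M21.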

Additional observations from a re-analysis of the deposited data

Results flagged for a closer look

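Cd163, the haemoglobin receptor, differed between the 2 drug groups in a direct test of the difference: QJSB against leucogen gave a log2 fold change of 1.96 (SE 0.33, edgeR adjusted p = 0.0052), with the 3 QJSB libraries at 7.62 to 15.3 CPM and the 3 leucogen libraries at 2.40 to 4.21 CPM, higher in 3 of 3. Both groups are set against the same model libraries, in which Cd163 ranged from 7.31 to 22.5 CPM. Over the 15 alternatives the value ran from 0.94 to 2.24 and the adjusted p from 2.8e-06 to 0.0361. Of 14266 genes tested between the 2 drug groups, 12.9% were called higher in QJSB and 11.7% lower. Cd163 was the 1 of 8 tested members that was called, a share near that of all genes. The sum of the 10 late neutrophil markers was 48145 to 57757 CPM in leucogen and 7331 to 37004 CPM in QJSB, without overlap. The sum of the 8 monocyte markers was 2153 to 2723 CPM in leucogen and 3649 to 4296 CPM in QJSB, also without overlap. Fn1 alone held 613 to 888 CPM of the monocyte sum in leucogen and 2191 to 2339 CPM in QJSB. Between these groups 6 of the 8 monocyte markers were not called. The part of neutrophils or monocytes in the difference of Cd163 was not tested.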

How the results depend on the processing

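Of 720 values of single members recomputed under alternatives, 634 kept their direction and call, 30 lost the call, 32 gained it and 24 changed sign, all 24 among values that were not called. Marco entered only the alternatives in which it passed the filter. The number of members called in model against normal was 5, and 3 with total counts, and with a library left out it ran from 3 to 8, and past the unadjusted cutoff from 4 to 8. In QJSB against model 1 member passed the unadjusted cutoff in a joint fit of the 12 libraries (Slc40a1) and 1 with a block on replicate number (Adgre1), where the main count was 0, and 0 to 2 with a library left out. In leucogen against model the count was 3, and 1 to 4 with a library left out. In QJSB against normal it was 5, and 3 to 6 with a library left out. In QJSB against leucogen it was 1, and it was 2 with DESeq2, with no filter, with a minimum of 10 counts, in the joint fit or with the replicate block, and 1 to 2 with a library left out. The cause of these moves was not tested.

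Signs changed with total counts in place of TMM for QJSB against model in Hmox1 (-0.025) and Vcam1 (-0.046), and for leucogen against normal in Slc40a1 (-0.020). On log2(FPKM + 0.1) and log2(FPKM + 1) they changed for QJSB against model in Hmox1 (-0.029 and -0.026) and Vcam1 (-0.014 and -0.015), in Cd163 on the first only (0.0073), and for leucogen against normal in Slc40a1 (-0.019 on both). A minimum of 10 counts gave -0.0030 for the latter. The replicate block gave 0.083 for Cd163 in QJSB against model. It turned into calls Vcam1 in model against normal (-0.61), Siglec1 in QJSB against normal (-0.92) and QJSB against leucogen (1.19), Spic in leucogen against normal (-0.73) and Siglec1 in leucogen against model, and changed no other call. With a library left out, the ranges that cross 0 were, for Adgre1 in model against normal, -0.44 to 0.16. For QJSB against model they were -0.0012 to 0.16 in Hmox1, -0.32 to 0.69 in Cd163, -0.13 to 0.17 in Vcam1 and -0.48 to 0.47 in Siglec1. In Vcam1 for leucogen against model the range was -0.22 to 0.069, and in Slc40a1 for leucogen against normal -0.032 to 0.10.

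Depth limits Marco, with 0 to 23 counts a library, and Spic, Siglec1, Cd163 and Timd4, which fell to under 60 counts in some libraries. The wide counting intervals of the Marco ratios leave their size uncertain.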

Other observations

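The gene of each other marker list with the highest mean count shows where the marrow around the macrophages stood. Hbb-bs, a chain of adult haemoglobin, was at 3720 to 6725 CPM in normal and at 85.1 to 1036 CPM in model, where model 1 was the highest (edgeR log2 fold change -3.75, adjusted p = 0.0373). Ebf1, a factor of B lineage cells, was at 546 to 560 CPM in normal and at 4.04 to 45.1 CPM in model, again with model 1 the highest (-4.72, edgeR adjusted p = 0.0080). Prg2, the major basic protein of eosinophils, fell by 4.35 on the log2 scale and Rsad2, an antiviral gene that interferon induces, fell by 4.76. Fn1, fibronectin, which monocytes express, rose from 555 to 625 CPM in normal to 1138 to 3259 CPM in model (1.71, edgeR adjusted p = 0.0096). In leucogen it stood at 613 to 888 CPM, and against model it fell by 1.37 on the log2 scale (edgeR adjusted p = 0.0375).

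S100a8, a subunit of calprotectin, was at 23700 to 25898 CPM in leucogen and 1725 to 8710 CPM in model (log2 fold change 2.34, edgeR adjusted p = 0.0160). Col1a1, a collagen of stromal cells, was at 424 CPM in QJSB 1 and at 65.7 and 67.7 CPM in the other two QJSB libraries. It was at 305 CPM in model 1 and at 85.0 and 70.7 CPM in the other two model libraries, and at 21.4 to 24.2 CPM in leucogen. Pecam1, an adhesion molecule of endothelial cells, had a log2 fold change of -0.56 in model against normal, under the fold limit (edgeR adjusted p = 0.0083).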
